A study of Mus musculus with 6 samples.

Results

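Cortical layer 4 spots were studied in 6 coronal sections of mouse brain profiled with Visium, an assay in which barcoded areas on a slide capture polyadenylated RNA from the tissue above them. A spot is a small disc of tissue in which RNA of neighbouring cells, often of unlike types, is mixed. The spots were chosen by measured expression: in each section the 70 with the highest summed score for 5 genes (Rorb, Rspo1, Pamr1, Cnih3 and Plcxd2) were taken, which gave 420 of 16741 spots with at least 500 unique molecular identifiers (UMIs). All mice were male C57BL/6J with no stated genetic change or treatment, aged 6 months (young), 18 months (middle) or 21 months (old). Each age had 2 sections, and the labels name 2 animals per age without saying which section came from which animal. Brains were frozen and cut at 16 µm near bregma -1.655 mm. If the 2 sections of an age came from 1 animal, p-values here would measure technical spread only.

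Layer 4 is the main input layer of sensory cortex. Its excitatory neurons receive axons from the sensory thalamus and pass the signal mainly to layer 2/3. The nuclear receptor Rorb is the best known gene of these neurons in the mouse. Rspo1 encodes a secreted R-spondin that strengthens Wnt signalling by keeping Wnt receptors at the cell surface. Cnih3 is an auxiliary subunit of AMPA-type glutamate receptors, and Plcxd2 belongs to the phospholipase C X-domain proteins. Layer 4 is widest in primary sensory areas.

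The score selected the members, so their levels of the 5 genes are a description and carry no test. Rspo1 was at 104, 92.0, 115, 111, 71.2 and 105 CPM (UMIs over the total of the summed spots, on the usual CPM scale) in the members of young 1, young 2, middle 1, middle 2, old 1 and old 2, and at 8.91 to 13.3 CPM in the other spots of the same sections. Rorb, in the same order of sections, was at 109, 124, 125, 138, 98.6 and 131 CPM in members and at 23.4 to 27.3 CPM elsewhere. Of the 6 sections, old 1 was lowest for both genes, and every section's members lay above every section's other spots. Averaged over sections, Pamr1 was at 124 CPM in members and 20.3 CPM elsewhere. Cnih3 stood at 187 against 43.5 CPM, and Plcxd2 at 226 against 43.9 CPM. All 5 genes were detected in 50 to 63 of 70 members, fewest in old 1, and in 1.55 to 4.08% of the other spots. The last spot taken scored 3.63, 3.54, 3.65, 3.69, 3.17 and 3.48 in the order of sections above, and the next spot 3.63, 3.50, 3.62, 3.67, 3.12 and 3.47, so no gap in the score sets the members apart.

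**Figure D1:**
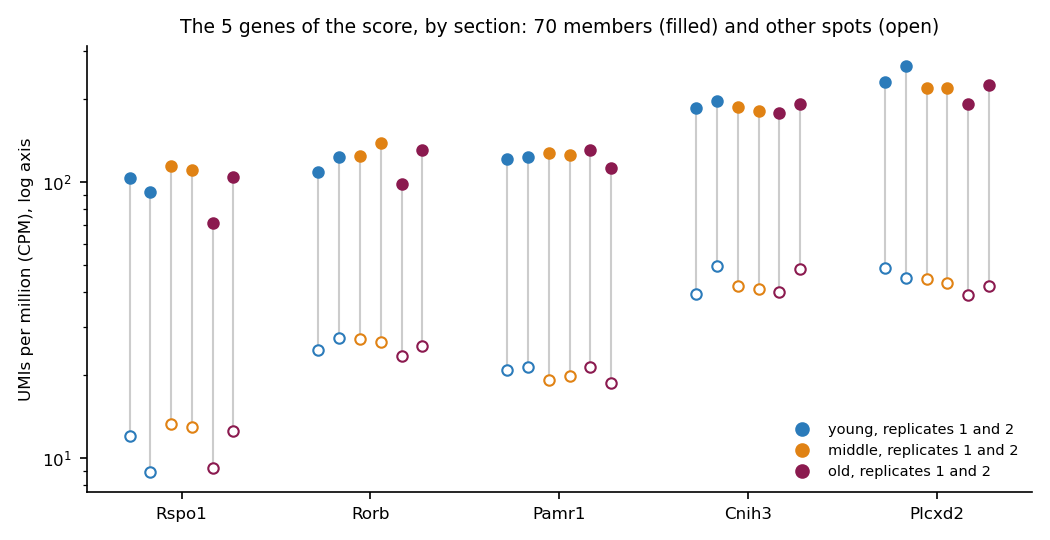
Level of the 5 genes of the score in CPM on a log axis, for the 70 members (filled) and all other spots (open) of each section; a line joins the values of 1 section. Rspo1 in members ran from 71.2 CPM in old 1 to 115 CPM in middle 1, and no open point reaches a filled point of the same gene.

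Members were deep spots. They held 2303381 to 3227328 UMIs per section, 3.62 to 4.16% of a section's UMIs in 2.35 to 2.72% of its spots, and the median member had 45254 UMIs in young 1, 46279 in young 2, 46221 in middle 1, 37137.5 in middle 2, 39278 in old 1 and 32274.5 in old 2, against 20044 to 29639 in the other spots. When every spot was thinned to 5000 UMIs before scoring, 28 to 37 of the 70 members of a section were chosen again. The parts of depth and of sampling noise in this were not tested. Old 1 stood apart, with the lowest scores, 5 members under 15000 UMIs (old 2 had 1) and 1 member in which Slc17a6, the glutamate transporter of thalamic neurons, had at least as many UMIs as Slc17a7, that of cortical neurons. Young 1, young 2, middle 1 and old 1 shared a slide, while middle 2 and old 2 were on another, so slide and age cannot be fully told apart. Sections of 1 age varied beyond sampling noise, with chi-square values per degree of freedom of 4.63 for the young pair, 3.06 for the middle pair and 3.29 for the old pair. The members carried 292 distinct barcodes, of which 92 occurred in 2 or more sections, and such barcodes name a position on the capture area.

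Genes of layer 4 that the score did not use were also high in these spots. Their summed level was 536 to 578 CPM in members of the 6 sections and 242 to 291 CPM in other spots. Whrn, which encodes the scaffold protein whirlin, was at 73.1 CPM in members (mean of 6 sections) and 19.3 CPM elsewhere. Scnn1a, a sodium channel subunit whose Cre line is a standard layer 4 driver, was at 10.0 against 2.28 CPM. Kcnh5, a voltage-gated potassium channel, was at 11.4 against 2.02 CPM, and Endou at 13.2 against 4.57 CPM. Each of the 10 genes in this list was higher in members in all 6 sections, from 1.34-fold for Rora to 4.62-fold for Kcnh5. Cux2 and Unc5d, transcripts of the upper layers, were not highest in members, since 70 spots chosen per section for 6 layer 2/3 genes had 82.9 CPM of Cux2 against 63.6 in members, and 47.3 against 43.5 CPM of Unc5d. All genes of the spots are tied to the choice, so no test was made of members against other spots.

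Among 6958 genes with at least 20 CPM in members, 2090 were higher than in the other spots in all 6 sections, 175 at a mean ratio of 2 or more and 17 at 4 or more. Rspo1 led with 8.34-fold. Behind it came Cyp39a1, an oxysterol hydroxylase, which was at 19.0, 21.4, 30.3, 38.6, 20.9 and 34.7 CPM across the sections' members and 7.86-fold above other spots. Kcnab3, a beta subunit of Kv1 potassium channels, was at 262, 265, 276, 362, 164 and 305 CPM, and 6.02-fold above other spots. Both genes were above the other spots in each section, and Kcnab3 was lowest in old 1. Tcap (6.10-fold), Adam33 (5.74-fold), Tspan11 (5.66-fold) and the zinc finger factor Ovol2 (5.65-fold) followed. Further down stood the hedgehog co-receptor Boc (4.24-fold), the potassium channel modulator Kcns1 (4.17-fold), the mTOR inhibitor Ddit4l (4.04-fold) and the synaptic organiser Cbln4 (4.03-fold). Neighbouring layers shared some of these genes. Kcnab3 was at 104 CPM, Cnih3 at 91.9 CPM and Plcxd2 at 99.7 CPM in 70 spots chosen per section for 6 layer 5 genes, while Cyp39a1 (1.68 CPM), Adam33 (1.40 CPM) and Tspan11 (1.59 CPM) were low there. Tmem215 (33.9 CPM) and Ddit4l (40.1 CPM) kept more than 50% of their member level in the spots highest for layer 2/3 genes.

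**Figure D2:**
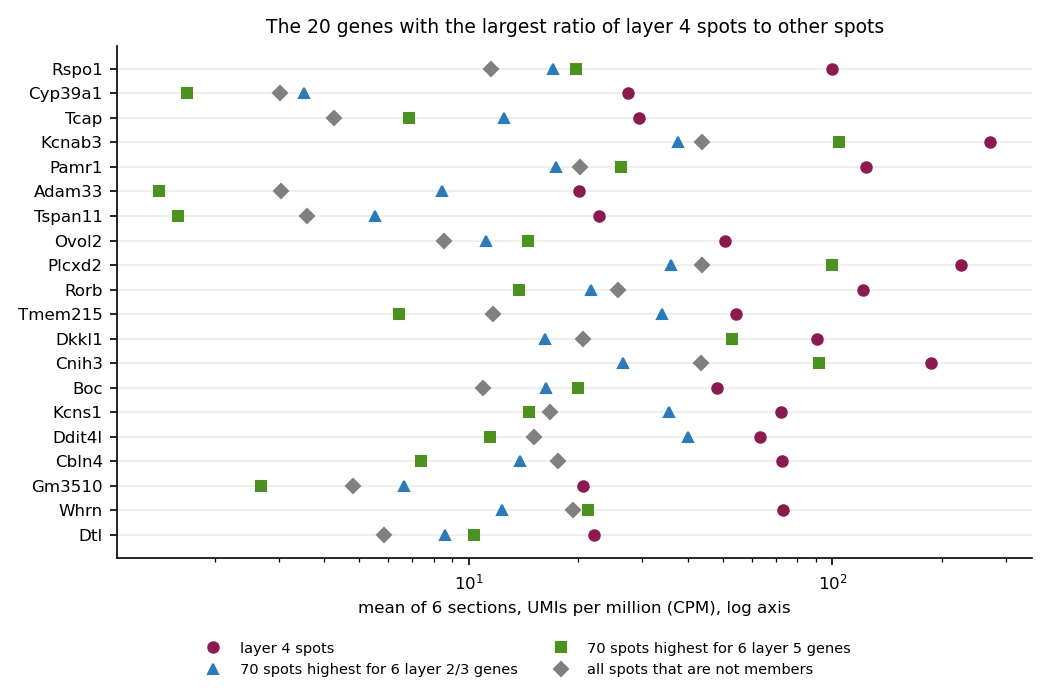
Mean CPM over 6 sections on a log axis of the 20 genes with the largest ratio of members to other spots, in members and in 3 other sets of spots. Kcnab3 stood at 272 CPM in members and 104 CPM in the layer 5 set, and Cyp39a1 at 27.5 and 1.68 CPM.

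Marker lists of striatum, hippocampus, thalamus and the deep layers were lower in members than in other spots. That of layer 2/3 was higher through its gene Lamp5. Summed over each list and averaged over sections, striatal genes were at 31.2 CPM in members and 322 CPM in other spots, hippocampal genes at 8.80 against 65.8 CPM, thalamic genes at 193 against 614 CPM and layer 6 genes at 137 against 306 CPM. Layer 5 genes were closer, at 202 against 265 CPM. Layer 2/3 genes were at 596 against 514 CPM and higher in members in each of the 6 sections. Lamp5, a gene of upper-layer neurons and some interneurons, was at 348 against 156 CPM. The Lamp5 difference was larger than that of the list, so the rest of the list summed lower in members. Myelin and oligodendrocyte genes were at 2892 against 8016 CPM, with Mbp at 1282 against 3099 CPM, and reactive astrocyte genes at 91.0 against 321 CPM, with Gfap at 8.32 against 108 CPM. Astrocyte genes (4096 against 3704 CPM) and inhibitory neuron genes (1811 against 1738 CPM) were near the level of other spots. Pvalb, a marker of fast-spiking interneurons, was at 378 against 253 CPM and Sst at 258 against 355 CPM. The spots chosen for layer 2/3 genes also held Penk at 308 CPM and Adora2a at 19.5 CPM, genes of striatal neurons, and so do not represent layer 2/3 alone.

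Immediate early genes, which neurons switch on within minutes of strong activity, had the largest ratio to other spots (2.59-fold for the summed level) among the 31 lists that the score did not use. The sum was 2533 and 3483 CPM in the young members, 2560 and 2385 CPM in the middle and 3387 and 2467 CPM in the old, and 924 to 1321 CPM in other spots. Egr1, a zinc finger factor, was 3.48-fold above other spots, Arc, which removes AMPA receptors from synapses, 3.15-fold, Nr4a1 2.82-fold and Fos 2.75-fold. These 4 were higher in members in every section. Npas4 (1.44-fold) was closer to other spots, and Nr4a3 was at 33.7 against 35.7 CPM. The spots chosen for layer 2/3 and layer 5 genes held Egr1 at 434 and 324 CPM, below the 1015 CPM of members.

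Members of 1 section differed among themselves. The summed level of the layer 4 genes outside the score ran from 91.2 to 1102 CPM over single members, and was 608 CPM in the 35 highest-scoring members of a section against 497 CPM in the 35 lowest. Layer 5 genes went the other way (170 against 236 CPM), as did layer 6 genes (124 against 151 CPM). The lower-scoring members held more deep-layer transcripts. Single spots carried other tissue: the member richest in meningeal genes, in old 1, had 50967 CPM of them where the section's median member had 297 CPM.

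Age was compared on UMIs summed over the members of each section, with edgeR's quasi-likelihood test and Benjamini-Hochberg adjustment over all genes tested. A gene is called at an adjusted p under 0.05, and CPM by section are scaled by TMM factors from here on, except where members are set beside other spots as unscaled CPM, which is then said. Between old and young 7 of 11829 genes (0.0592%) were called, 2 higher and 5 lower in old, and 5.64% had an unadjusted p under 0.05. Between middle and young 9 genes (0.0761%) were called, 4 higher and 5 lower in middle, with 5.31% under an unadjusted 0.05. Both comparisons use the same young sections, so they are not independent of each other. The rule for naming genes from comparisons between ages required a call and no overlap of the sections compared. For genes named by it, that separation was set by the choice and is no further result. Between old and middle 1 gene (0.00845%) was called. DESeq2 called 1 gene (AC149090.1), 3 genes (AC149090.1, Ttr and Hba-a2) and 1 gene (Ttr) in these comparisons. Over 21 alternative settings the old against young call was made in 21 for AC149090.1, 18 for Sgk1, 17 for Hspa1b, 12 for Hspa1a and 7 for Nfkb2, and in 15 of 20 for Hba-a2 and 13 of 20 for Hbb-bt. The count for old against young was 3 without young 1 and 34 without old 2, when old 1 alone stands for its age, and that for middle against young was 4 without middle 1, 16 without old 1 and 17 without old 2. With spots thinned to 5000 UMIs before scoring, 1 gene was called for old against young and 5 for middle against young. For old against middle the count was 2 without middle 2, 3 without old 1 and 66 without old 2.

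AC149090.1 had the steadiest difference between ages. It is a protein-coding gene model on the unplaced scaffold JH584304.1 (52190 to 59690, minus strand, GRCm38), and reads from near-identical copies elsewhere could have been counted with it. Its level was 142 and 160 CPM in the young sections, 349 and 384 CPM in the middle and 329 and 366 CPM in the old. The young sections lay apart from the other 4, as the rule for naming required, and middle and old overlapped. The log2 fold change was 1.20 ± 0.11 (SE) for old against young (edgeR adjusted p = 3.66e-08) and 1.28 ± 0.11 for middle against young (adjusted p = 6.03e-09). DESeq2 called it in both comparisons, as did each of the other 20 alternatives. Other spots carried the same direction, at 121 and 152 CPM in young and 255 and 261 CPM in old.

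Nfkb2, a subunit of the non-canonical NF-kappa-B pathway, was the other gene called higher in old. It was at 7.36 and 6.68 CPM in young, 11.1 and 10.96 in middle and 15.8 and 19.9 in old members, from 22 to 46 UMIs per section. The 3 ages did not overlap, and old was 2.52-fold above young (log2 1.33 ± 0.27 SE, edgeR adjusted p = 0.0459). The call was lost without any 1 section other than old 1 (adjusted p 0.0572 to 0.283), with slide as a block (0.129) and in DESeq2.

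**Figure D3:**
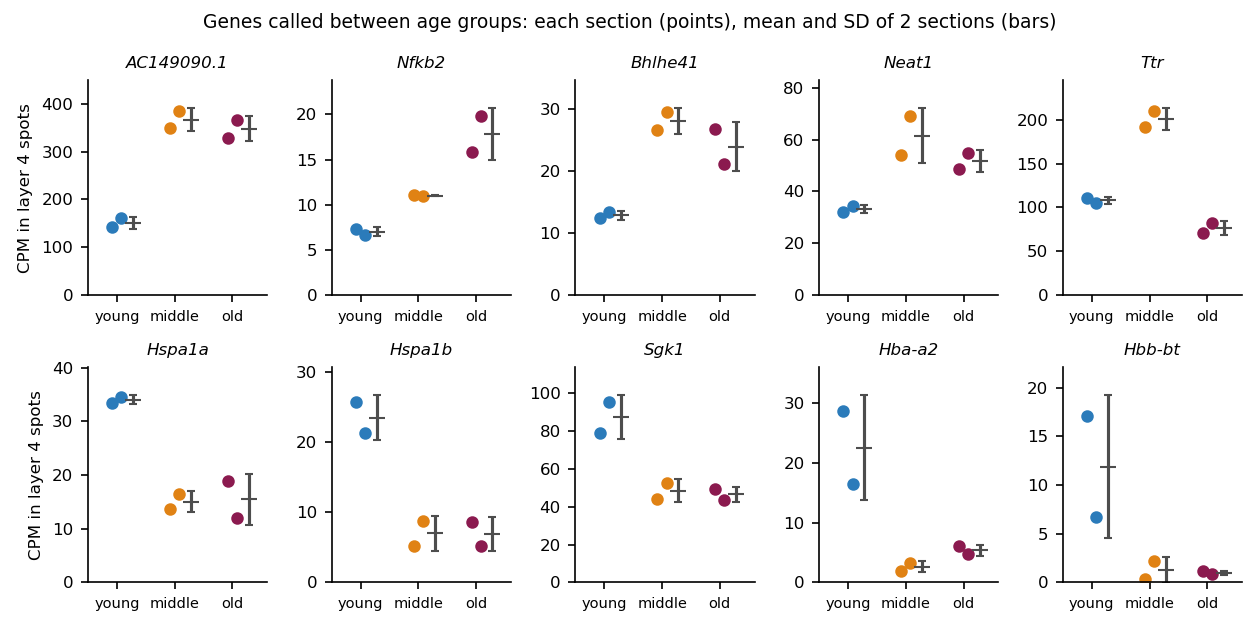
CPM in layer 4 spots of each section for the 10 genes called between ages, with linear axes from 0; bars give the mean and SD of the 2 sections of an age. AC149090.1 rose from 142 and 160 CPM in young to between 329 and 384 CPM in the 4 older sections, while Hspa1a, Hspa1b and Sgk1 were highest in both young sections.

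Hspa1a and Hspa1b, the inducible HSP70 chaperones, were lower in both older groups. Heat shock factor 1 switches them on when proteins misfold, through inverted repeats of GAA in their promoters. They are neighbours on chromosome 17 (Hspa1a 34969190 to 34972156 and Hspa1b 34956436 to 34959238, minus strand, GRCm38), and the 250 bases before their start sites are 98.8% identical (247 of 250). The RefSeq promoters (GRCm38.p6, chr17:34972157-34972406 for Hspa1a and chr17:34959239-34959488 for Hspa1b, both written 5′ to 3′ on the minus strand) are shown because both genes were called in both comparisons, with the match to GAANNTTC in capitals.
Hspa1a: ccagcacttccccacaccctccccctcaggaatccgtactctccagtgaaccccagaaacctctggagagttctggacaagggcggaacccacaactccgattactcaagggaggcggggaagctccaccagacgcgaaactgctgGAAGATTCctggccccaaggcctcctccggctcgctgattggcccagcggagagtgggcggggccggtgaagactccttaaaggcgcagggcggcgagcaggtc
Hspa1b: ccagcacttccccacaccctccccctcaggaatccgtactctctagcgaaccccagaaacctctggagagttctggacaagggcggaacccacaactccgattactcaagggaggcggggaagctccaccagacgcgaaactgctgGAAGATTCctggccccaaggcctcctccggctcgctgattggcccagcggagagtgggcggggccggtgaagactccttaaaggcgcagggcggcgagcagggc
Each promoter held 1 match to GAANNTTC or TTCNNGAA, which read the same on both strands and were searched without regard to overlap, starting 104 bases before the start site. Of 32851 RefSeq promoters cut to the same length, 12.8% held either motif.

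Hspa1a was at 33.5 and 34.6 CPM in young, 13.7 and 16.4 in middle and 18.8 and 12.1 in old members. Hspa1b was at 25.8 and 21.3 CPM in young, 5.21 and 8.77 in middle and 8.67 and 5.18 in old. For both genes the young sections lay above the other 4, as the rule for naming required, and middle and old overlapped. Hspa1a fell by 1.12 ± 0.21 (log2, SE) from young to old (edgeR adjusted p = 0.0213) and by 1.18 ± 0.21 from young to middle (0.00429). Hspa1b fell by 1.73 ± 0.28 (edgeR adjusted p = 0.00214) and by 1.76 ± 0.27 (0.000862). How reads were split between the 2 copies was not tested, so their separate values are uncertain.

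Of the wider heat shock list few genes were called. The list's median log2 change was -0.26, and 2 of its 12 tested members were called lower in old (0.0592% of all genes were called). An unadjusted p under 0.05 was found for 5, all lower, and for 5.64% of all genes. The co-chaperone Dnajb1 (94.3 and 94.4 CPM in young, 78.4 and 56.5 in old, edgeR adjusted p = 0.423) and Hsph1 (293 and 306 against 250 and 234 CPM, edgeR adjusted p = 0.617) were among these 5 but were not called. The constitutive Hspa8 had a log2 change of -0.09. For Hspa1a, old against young was not called without young 1 (edgeR adjusted p = 0.172), young 2 (0.0984) or old 2 (0.105), and middle against young not without young 1 (0.0512), young 2 (0.066) or middle 1 (0.279). Hspa1b was not called for old without young 1 (edgeR adjusted p = 0.107) or for middle without middle 1 (0.214). With slide as a block Hspa1a was called in neither (edgeR adjusted p = 0.0625 and 0.0566), and DESeq2 called neither gene.

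Sgk1, a kinase that glucocorticoids induce in brain, was at 79.0 and 95.4 CPM in young, 44.3 and 52.6 in middle and 49.4 and 43.6 in old members. Again the young sections lay above the other 4, as the rule for naming required. It fell by 0.91 ± 0.14 (log2, SE) from young to old (edgeR adjusted p = 0.00151) and by 0.85 ± 0.14 from young to middle (0.000972). Of 10 tested genes of the glucocorticoid list this was the only call, where 0.0592% of all genes were called for old. An unadjusted p under 0.05 was found for 5.64% of all genes and for 4 of the list, Sgk1 among them, all lower in old. Among these, Nfkbia, the inhibitor of NF-kappa-B, was at 30.8 and 33.1 CPM in young and 18.8 and 21.2 in old (edgeR adjusted p = 0.423), and Klf9 at 206 and 218 against 164 and 165 CPM (0.423). The list's median was -0.29. Without young 2 the Sgk1 call was lost for old (edgeR adjusted p = 0.0534) and for middle (0.0755), and without middle 1 for middle (0.214), and DESeq2 called it in neither (0.326 and 0.342).

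Ttr, Neat1 and Bhlhe41 were called higher in middle than in young members. Ttr encodes transthyretin, the main secreted product of the choroid plexus, and was at 111 and 105 CPM in young, 192 and 210 in middle and 70.8 and 82.0 in old members. The 3 ages did not overlap. Ttr rose by 0.89 ± 0.11 (log2, SE) from young to middle (edgeR adjusted p = 5.71e-06) and fell by 1.40 ± 0.11 from middle to old (1.33e-09), the single call of that comparison. In other spots its mean was 3461 unscaled CPM, with 2081 and 4025 CPM in the middle sections and 2670 to 4369 CPM in the others. The part of free or neighbouring Ttr RNA in the member values was not tested. With spots thinned to 5000 UMIs before scoring, the Ttr change was 0.55 for old against middle (edgeR adjusted p = 0.999) and 0.96 for middle against young (1.00), and neither was called.

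Neat1, the long non-coding RNA that builds paraspeckles, was at 32.1 and 34.3 CPM in young, 54.0 and 69.1 in middle and 48.6 and 54.8 in old members. It was called for middle against young (log2 0.88 ± 0.15 SE, edgeR adjusted p = 0.00327) and not for old against young (0.63, 0.249). Without middle 2 (edgeR adjusted p = 0.622) or young 1 (0.0971), with slide as a block (0.0608) and in DESeq2 (0.478) it was not called for middle. Bhlhe41, a transcriptional repressor of the circadian clock, was at 12.4 and 13.4 CPM in young, 26.7 and 29.6 in middle and 26.8 and 21.2 in old members. It rose 2.17-fold in middle (log2 1.12 ± 0.21 SE, edgeR adjusted p = 0.0129) and was not called for old (0.90, 0.244). Its call for middle was lost without any 1 of the young or middle sections (edgeR adjusted p 0.095 to 0.587) and in DESeq2. Of 16 clock genes it was the only call, where 0.0761% of all genes were called. In middle 6 clock genes had an unadjusted p under 0.05, all higher, and 5.31% of all genes did. Among the 6 were Per3 (16.4 and 11.8 CPM in young, 23.8 and 23.7 in middle) and the D-box factor Dbp (48.8 and 44.9 against 55.0 and 75.3 CPM). The time of day at which brains were taken is not given in the sources used here.

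Haemoglobin transcripts, which come from red blood cells, were highest in young members. Hba-a2 was at 28.8 and 16.4 CPM in young, 1.95 and 3.29 in middle and 6.03 and 4.75 in old members, and was called lower in old (log2 -2.04 ± 0.32 SE, edgeR adjusted p = 0.00153) and in middle (-3.09 ± 0.36, 5.04e-06). Hbb-bt, with under 10 CPM on average and named although it falls outside the rule for named genes, was also called in both (-3.48, edgeR adjusted p = 0.0412, and -3.23, 0.0239). A few spots held these UMIs: in young 1 the 3 richest members carried 62.8% of 86 Hba-a2 UMIs, and in young 2 74.1% of 54. Without young 1 neither gene was called in old (edgeR adjusted p = 0.172 and 0.469). Hbb-bt was not called in old without old 1 (edgeR adjusted p = 0.259) or old 2 (0.063) either, nor in middle without young 1 (0.284) or middle 1 (0.376).

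The identity genes of layer 4 gave no call between ages, like nearly all genes. Over all genes 0.0592% were called for old and 0.0761% for middle against young. The lack of a call thus does not set layer 4 genes apart. None of the 10 layer 4 genes outside the score was called by edgeR for old against young, where none had an unadjusted p under 0.05, or for middle against young, where 2 did (Cux2 higher and Thsd7a lower); DESeq2 called none in either. Their old against young log2 changes ran from -0.25 for Unc5d to 0.14 for Endou, with a median of -0.06. Whrn was at 69.9 and 72.3 CPM in young, 71.3 and 72.0 in middle and 73.9 and 81.2 in old members. Scnn1a, from 16 to 42 UMIs per section, was at 6.69 and 12.8, 9.11 and 12.8, and 6.03 and 12.95 CPM, so that the 2 old sections alone spanned its whole range.

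The pathways of the score genes were described through their partners. For old against young, 0.0592% of all genes tested were called and 5.64% had an unadjusted p under 0.05. Of 16 tested R-spondin and Wnt genes none was called by edgeR or DESeq2 between old and young, 1 (Dkk3, a secreted Wnt modulator, at 79.96 and 102 CPM in young and 126 and 100 in old) had an unadjusted p under 0.05, and the median change was 0.05. The R-spondin receptor Lgr4 was at 13.7 and 17.9 CPM in young and 21.9 and 15.5 in old members, and its mean level in members (19.1 unscaled CPM) was near that of other spots (18.9). Rspo2, the related ligand, was lower in members (2.88 unscaled CPM) than elsewhere (7.23). Of 8 auxiliary subunits of AMPA receptors none was called by edgeR or DESeq2 and none had an unadjusted p under 0.05 for old against young. Cnih2, the paralogue of Cnih3, was at 163 unscaled CPM in members and 279 elsewhere, and by age at 161 and 161 CPM in young against 196 and 165 in old members. Stargazin, encoded by Cacng2, was at 67.9 and 82.6 CPM in young and 73.1 and 74.2 in old.

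Of 31 lists beside the score genes, 28 held no call between old and young, where 0.0592% of all genes tested were called. These 28 lists had 250 tested entries, of which 25 had an unadjusted p under 0.05 and DESeq2 called 0. Over all genes the unadjusted share was 5.64%. Of 20 excitatory synapse genes none was called and 1 (Syn2) was under an unadjusted 0.05, with Snap25 at 4813 and 5122 CPM in young and 4587 and 5049 in old. Of 14 immediate early genes 2 were, with Npas4 higher (18.7 and 23.4 against 36.9 and 28.5 CPM) and Arc lower (474 and 673 against 444 and 397 CPM). In old 1 Fos was at 246 CPM and Egr2 at 45.2 CPM, against 133 and 23.3 CPM in old 2. Of 12 inhibitory neuron genes 1 (Cnr1) was under 0.05, with Pvalb at 485 and 351 CPM in young and 248 and 452 in old.

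Glial lists were likewise without a call between old and young, beside shares over all genes of 0.0592% called and 5.64% under an unadjusted 0.05. Of 12 myelin genes 1 (Mal, lower) had an unadjusted p under 0.05, with Mbp at 1210 and 1193 CPM in young and 1041 and 1371 in old. Of 11 tested genes of activated microglia and complement 1 did (Tyrobp, an adaptor of microglial receptors, at 38.5 and 29.5 CPM in young, 49.5 and 56.6 in middle and 51.2 and 48.8 in old, edgeR adjusted p = 0.423). Of 5 tested reactive astrocyte genes Vim did, while Gfap, at 5.02 and 6.07 CPM in young and 11.7 and 8.63 in old, did not. Of 10 tested interferon and MHC class I genes 1 did (Ifi27, at 43.8 and 32.8 against 42.6 and 63.9 CPM). In bulk sums such as these, fewer cells of a type and less RNA per cell cannot be told apart.

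**Figure D4:**
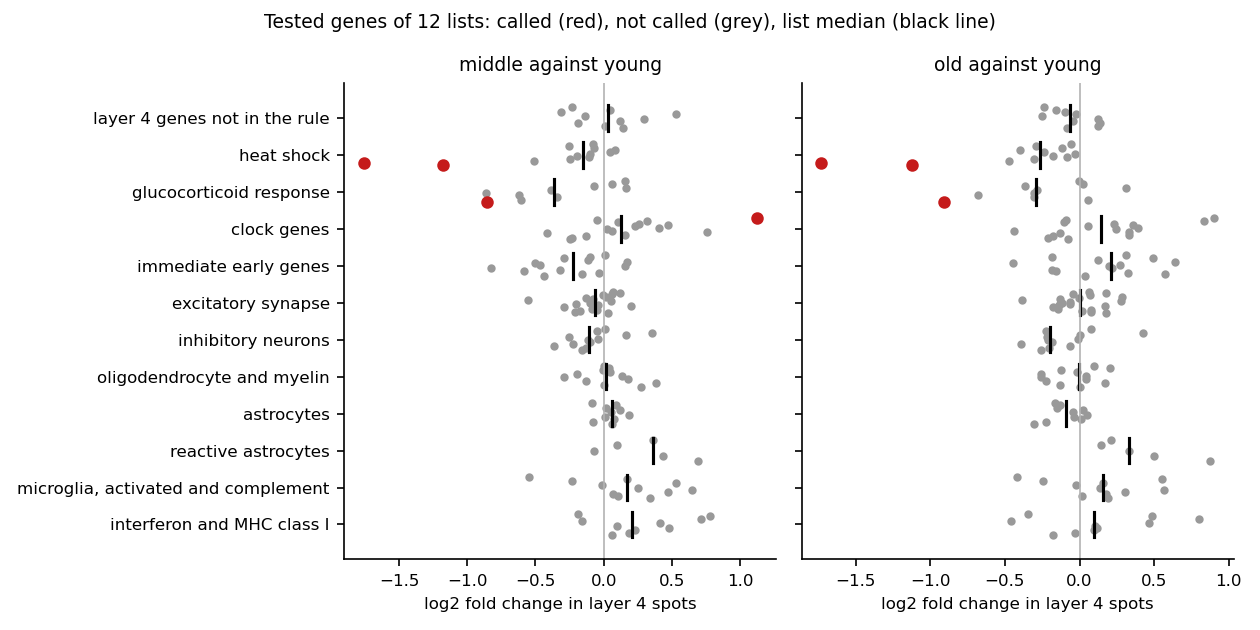
Log2 fold change in layer 4 spots of every tested gene of 12 lists, for middle and old against young (2 sections each); red points are called, grey points are not and black lines are list medians. The heat shock genes Hspa1a and Hspa1b and the glucocorticoid gene Sgk1 are called in both panels, Bhlhe41 of the clock list is called in middle alone, and the difference between the panels was not tested for these genes.

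Whether members changed with age otherwise than the rest of the same sections was tested with an interaction term beside a section block. The other spots mix regions, and their make-up varied by section. Their thalamic genes summed to 418 unscaled CPM in young 1 and 810 in young 2, and their striatal genes ran from 239 in old 1 to 427 in middle 2. A section block does not remove this, and its part in the differences was not tested. Against all other spots, 15 of 16864 genes (0.0889%) differed in their old against young change, 7 more positive and 8 more negative in members, and 810 (4.80%) had an unadjusted p under 0.05, 441 more positive and 369 more negative. The largest positive difference was that of Nr4a2, an orphan nuclear receptor and immediate early gene. It was at 25.9 and 26.9 CPM in young and 68.1 and 41.8 CPM in old members, and at 52.5 and 56.3 CPM in young and 50.3 and 47.3 CPM in old other spots. The change in members exceeded that elsewhere by 1.21 ± 0.16 (log2, SE, edgeR adjusted p = 1.13e-10), and DESeq2 gave an adjusted p of 0.0306, its single call. Egr3, of the same functional class, differed by 0.43 ± 0.09 (0.00322), with 160 and 212 CPM in young and 240 and 182 CPM in old members. In members young and old overlapped for Egr3 and not for Nr4a2, whose middle sections (36.7 and 25.1 CPM) overlapped young. Of the 14 immediate early genes 11 had an unadjusted p under 0.05 for this difference, all more positive in members, and Egr3 was the call of that list. A more positive difference need not be a rise in members. Log2 changes in members and in other spots were 0.20 and -0.24 for Egr3, 0.33 and -0.078 for Junb, 0.037 and -0.25 for Fos, and -0.18 and -0.35 for Egr1. Junb was at 112 and 162 CPM in young, 219 in old 1 and 120 in old 2 members.

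Stum (1.19) and Doc2a (0.84), a calcium sensor of transmitter release, followed Nr4a2 among the more positive genes. Stum was at 10.3 and 22.3 CPM in young, 14.3 and 17.8 in middle, 52.4 in old 1 and 17.9 in old 2 members, so its excess stood in old 1. Doc2a was at 19.6 and 20.5 CPM in young, 43.4 in old 1 and 29.0 in old 2. Without old 1 Nr4a2 differed by 0.86 (edgeR adjusted p = 0.0723), Stum by 0.38 (1), Doc2a by 0.46 (1) and Egr3 by 0.34 (0.808), so none was called. With spots thinned to 5000 UMIs before scoring, none of the 4 was called either, and the differences were 0.53 (edgeR adjusted p = 0.358), 0.62 (1), -0.054 (1) and 0.11 (1), so that of Doc2a changed sign. With 100 spots per section they were 0.87 (edgeR adjusted p = 0.0784), 0.91 (1), 0.45 (0.865) and 0.32 (0.278). The phosphodiesterase Pde10a differed by 0.70 ± 0.17 (edgeR adjusted p = 0.0442). It was at 31.9 and 31.2 CPM in young and 29.9 and 49.9 in old members. In other spots it was at 85.1 and 45.7 CPM in young and 43.5 and 53.9 in old, so young and old overlapped in both. Pde10a was not called without young 1 (0.24) or old 2 (0.47), nor with slide as a block (edgeR adjusted p = 0.0831).

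**Figure D5:**
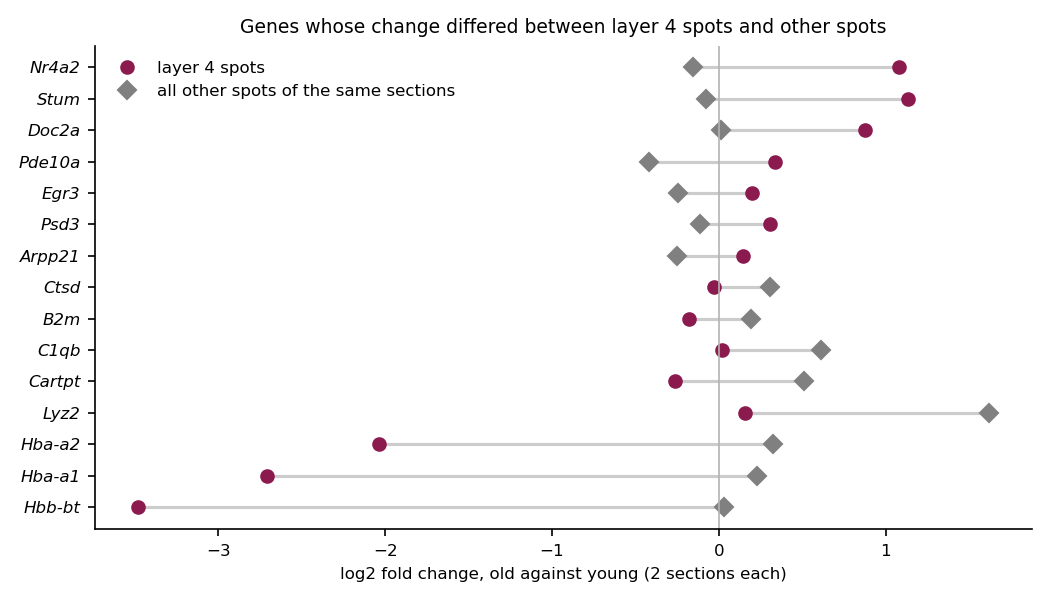
Log2 fold change of old against young in layer 4 spots (circles) and in all other spots of the same sections (diamonds) for the 15 genes whose change differed between them. Lyz2, C1qb and Ctsd stood at 1.62, 0.61 and 0.31 in other spots and at 0.16, 0.017 and -0.027 in layer 4 spots.

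Against all other spots, genes of microglia and lysosomes stood on the negative side. Lyz2, the lysozyme of macrophages and microglia, was at 12.7 and 9.47 CPM in young and 25.6 and 42.6 CPM in old other spots, but at 11.3 and 7.64 CPM in young and 8.23 and 12.8 CPM in old members. The difference between these changes was -1.47 ± 0.30 (log2, SE, edgeR adjusted p = 0.00155). C1qb, a subunit of the complement starter C1q, went from 74.6 and 80.2 to 106 and 130 CPM elsewhere and from 56.8 and 48.6 to 47.9 and 58.0 CPM in members (-0.61 ± 0.13, edgeR adjusted p = 0.00757). The lysosomal protease Ctsd differed by -0.35 (0.0202) and B2m, the light chain of MHC class I, by -0.40 (0.0049). Of 15 genes of activated microglia and complement 3 were called (0.0889% of all genes were). An unadjusted p under 0.05 was found for 8 of the 15 and for 4.80% of all genes. All 15 had a more negative change in members, but only 11 had enough UMIs to be tested within members. The rest entered through their level in other spots, so the count of 15 is no support. Within members 8 of the 11 were higher in old than in young, with a median log2 change of 0.16. In both young and old, C1qb was lower in members than in other spots. The spots highest for layer 2/3 genes had old against young changes of 0.074 for Lyz2, -0.24 for C1qb, 0.022 for Ctsd and -0.16 for B2m. Members differed from that set by 0.079, 0.25, -0.051 and -0.027, and none of these differences was called. The lack of a rise in these genes was thus not particular to members.

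These calls rest on few sections. Without young 1, Lyz2 (edgeR adjusted p = 0.426), C1qb (0.96), Ctsd (0.472) and B2m (0.745) were not called, and C1qb and Ctsd were not called without old 1 (0.194 and 0.311) or old 2 (0.0531 for both) either, nor B2m without old 1 (0.808) or Ctsd without young 2 (0.13). With spots thinned to 5000 UMIs before scoring, Lyz2 differed by -1.02 (edgeR adjusted p = 0.341) and was not called, and C1qb by -0.58 (0.0377). The count of called genes was 8 without young 1, 26 without young 2, 6 without old 1 and 63 without old 2, and 57 with slide as a block.

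Cartpt, a neuropeptide precursor, differed by -0.75 (edgeR adjusted p = 0.000188) but ranged from 25.0 to 141 CPM in other spots of the 6 sections, and its call was lost without young 1 (0.828) or old 2 (0.264). The haemoglobin genes Hba-a2 (-2.39), Hba-a1 (-2.98) and Hbb-bt (-3.59) were also called, with log2 changes of 0.32, 0.23 and 0.034 in other spots. Psd3 (0.40, edgeR adjusted p = 0.00419) and Arpp21 (0.36, 0.0239) completed the list and were not called without young 1 (0.201 and 1) or old 1 (0.808 and 1), nor Psd3 without young 2 (0.13).

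Apart from haemoglobin, the genes called between ages within members were set beside other spots in the same way, for old against young. Sgk1 fell by 0.91 (log2) in members and had a log2 change of -1.22 in other spots, where it went from 146 and 178 CPM in young to 67.7 and 70.7 CPM in old (difference 0.30 ± 0.13, edgeR adjusted p = 0.932). Hspa1b fell by 1.73 in members and had -1.86 elsewhere (difference 0.10 ± 0.29, edgeR adjusted p = 1), and Hspa1a fell by 1.12 and had -1.76 elsewhere (0.61 ± 0.21, 0.64). AC149090.1 rose by 1.20 in members and had 0.93 elsewhere (0.25 ± 0.08, 0.541). Nfkb2 rose by 1.33 in members and had 0.71 elsewhere (0.61 ± 0.29, edgeR adjusted p = 0.979). Neat1, not called for old, had 0.63 in members and 0.90 elsewhere, and Bhlhe41, not called either, 0.90 and 0.33. Ttr, also not called for old, had opposite signs, at -0.50 in members and 0.41 elsewhere. In all other spots Sgk1 and the HSP70 pair were also lower in both old sections than in both young ones. No difference between members and other spots was called for the genes of this paragraph. The unadjusted edgeR p of that difference was 0.0027 for AC149090.1, 0.0044 for Hspa1a, 0.019 for Sgk1, 0.032 for Nfkb2 and 0.74 for Hspa1b. The lack of a call thus does not show equal changes.

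Against the spots highest for layer 2/3 genes, 3 of 12320 genes (0.0244%) differed. Lypd1, a modulator of nicotinic receptors, was at 12.3 and 18.6 CPM in young, 47.1 in old 1 and 20.1 in old 2 members, and at 64.4 and 104 against 69.5 and 39.0 CPM in the layer 2/3 set (difference 1.77 ± 0.23 SE, edgeR adjusted p = 1.47e-06). In old 1 its 126 UMIs lay in 28 of 70 members, with 44.4% in the 3 richest. The Lypd1 call was kept in 18 of 20 alternatives and lost in DESeq2 and with spots thinned to 5000 UMIs before scoring. Nr4a2 differed by 1.39 ± 0.23 (edgeR adjusted p = 0.000807) and was at 33.4 and 33.2 against 27.3 and 26.1 CPM in the layer 2/3 set. Abracl differed by -1.24 ± 0.26 (edgeR adjusted p = 0.0431), was at 45.5 and 51.05 against 38.5 and 40.1 CPM in members and at 11.2 and 12.1 against 21.1 and 24.5 CPM in the set. Abracl was not called without any 1 of the 6 sections, nor Nr4a2 without young 1 (edgeR adjusted p = 0.0615), young 2 (0.0934) or old 1 (0.351). The count was 6 without young 1, 1 without young 2, 7 without old 1 and 40 without old 2. DESeq2 called 0, and 713 genes had an unadjusted p under 0.05 in edgeR.

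Against the spots highest for layer 5 genes, 1 of 12121 genes (0.00825%) differed. Hbb-bs, a haemoglobin chain, was at 91.0 and 48.9 CPM in young and 8.98 and 5.97 in old members, against 19.3 and 7.63 and then 15.6 and 10.6 CPM in the layer 5 set (difference -3.21 ± 0.39 SE, edgeR adjusted p = 1.82e-05). In young 1 and young 2 the 3 richest members held 53.6% and 76.2% of its UMIs. DESeq2 called 0, and 421 genes had an unadjusted p under 0.05 in edgeR. The count was 2 without either middle section, 8 without old 1 and 44 without old 2.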

How the data were processed

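For each gene and spot the deposited values are unnormalized UMI counts, made by the authors with Space Ranger, version 1.3.1 per the file headers and 3.1 per the submitters' processing notes, which name mm10. Tissue images and spot positions were not used here. Spots with at least 500 UMIs were scored as the sum of log1p(UMIs × 10000 / spot total) over the 5 genes, and the 70 highest per section were kept. UMIs were summed per section, so the section is the replicate, and sums held 2303381 to 3227328 UMIs. Age was tested on all 6 sections with edgeR 4.0.16 (robust quasi-likelihood, TMM, filterByExpr, 3 residual degrees of freedom). Interactions used a section block. DESeq2 1.42.0 and other filters, depths, spot numbers, blocks and left-out sections were alternatives. Scripts were tested on simulated data.

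Named genes were, per direction, the 10 called genes with the largest fold (5 for old against middle and for interactions), at least 10 CPM and, for comparisons between ages, no overlap of sections, with the score and layer 4 genes, the called genes of each list, its members of highest CPM, and the 20 leading genes. Genes named outside it were Hbb-bt, the remaining called interaction genes, and list genes picked after their values were seen. Members and lists were chosen with earlier results of these data known. Of 32285 gene identifiers, 32235 matched GENCODE M21 (GRCm38). Ratios to other spots used log2(CPM + 0.5) and the mean over sections.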

Additional observations from a re-analysis of the deposited data

Results flagged for a closer look

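For 13 genes named by the rule, the change from young to old differed between layer 4 spots and another set of spots of the same sections. The test was edgeR's quasi-likelihood test of an interaction. Hba-a1, Hbb-bt, Ctsd, Psd3 and Arpp21 were also called against all other spots but fell outside the rule. Against all other spots the log2 change in layer 4 spots was more positive for Nr4a2 (1.21), Stum (1.19), Doc2a (0.84), Pde10a (0.70) and Egr3 (0.43). It was more negative for Hba-a2 (-2.39), Lyz2 (-1.47), Cartpt (-0.75), C1qb (-0.61) and B2m (-0.40). Against the spots highest for layer 2/3 genes, Lypd1 (1.77) and Nr4a2 (1.39) were more positive and Abracl (-1.24) more negative. Against the spots highest for layer 5 genes, Hbb-bs was more negative (-3.21).

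Old 1 held the highest member level of Nr4a2, Stum, Doc2a, Egr3 and Lypd1 among the 6 sections, and its members also had the lowest scores and 5 spots under 15000 UMIs. Leaving out members under 15000 UMIs kept 15 of the 15 calls against all other spots and gave 16. The part of the lower scores in these differences was not tested.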

How the results depend on the processing

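With 2 sections per age the counts of called genes move with single sections. In the order old against young, middle against young, old against middle, and the difference in the old against young change from other, layer 2/3 and layer 5 spots, the main counts were 7, 9, 1, 15, 3 and 1. RLE factors, leaving out the member rich in Slc17a6 and leaving out mitochondrially encoded genes gave those counts again. Leaving out 1 section at a time gave 3 to 34, 4 to 17, 1 to 66, 6 to 63, 1 to 40 and 1 to 44. DESeq2 gave 1, 3 and 1, then 1, 0 and 0. No filter gave 20, 22, 22, 15, 18 and 4, and at least 10 UMIs in every section 4, 7, 1, 4, 3 and 0. With the 50 highest-scoring spots counts were 2, 6, 1, 13, 4 and 1, and with 100 they were 5, 11, 1, 2, 5 and 2. Scoring spots thinned to 5000 UMIs gave 1, 5, 0, 24, 7 and 1, with 2 reversed values, Ttr in old against middle (0.55) and Doc2a against other spots (-0.054). Thinning sums to the smallest total gave 6, 8, 1, 12, 6 and 1. Slide as a block gave 11, 7, 5, 57, 12 and 3, and the replicate block 8, 10, 1, 15, 3 and 4. Replicate numbers did not pair the sections: differences between replicates 1 and 2 correlated at -0.041 (young and middle), -0.145 (young and old) and 0.116 (middle and old) over 9211 genes, and the number matches the slide in middle and old only. After the data were seen, slide 1 alone was tried (35, 10, 27, 61, 26 and 48), and members under 15000 UMIs were left out (7, 9, 4, 16, 3 and 1). The causes were not tested. Over 36 named results and 729 alternatives, 541 kept direction and call, 186 kept direction but not the call and 2 reversed. Of named genes that were not called, 188 of 207 in old and 198 of 205 in middle against young were called in no alternative. Genes with few UMIs per section, such as Scnn1a with 16 to 42, cannot show small changes at this depth.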
